A study of Mus musculus with 10 samples.

Results

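The 33 genes described here encode the enzymes of glycolysis, the kinases and phosphatases that set its rate, the carriers of glucose and lactate, and the enzymes of glycogen. They were chosen by gene symbol, and all 33 were found among the 35275 rows of the expression table. The RNA came from motor cortex of C57BL/6 mice taken on postnatal day 22. The 5 knockout mice (KO) carried an astrocyte conditional knockout of membralin, a membrane protein of the endoplasmic reticulum encoded by Tmem259, and the 5 others were wild type (WT). The driver used to delete the gene in astrocytes and the cells it reaches are not stated in the labels. The comparison asks which transcripts of carbohydrate use differ in cortex when astrocytes lack membralin.

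Glycolysis splits glucose into pyruvate. Pyruvate is either reduced to lactate by lactate dehydrogenase or passed into the mitochondrion, where pyruvate dehydrogenase turns it into acetyl-CoA. In brain, astrocytes hold nearly all of the glycogen and are held to release lactate through monocarboxylate carriers, and neurons take it up through another carrier of the same family. Many glycolytic genes are targets of the hypoxia-inducible factors, whose binding sites hold the core ACGTG or GCGTG.

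The promoters of 7 of the 9 genes that differed between KO and WT are shown, those with a single annotated start in the table used: 6 belong to genes that rose and 1, that of Pygm, to the gene that fell. Each line gives the 250 bases upstream of the start, 5′ to 3′ on the strand of the gene, from RefSeq (GRCm38.p6). Capitals mark ACGTG and GCGTG on either strand, so that CACGT and CACGC are capitals too, and an ACGTG that reads the same on both strands as CACGTG is also the E-box. The windows lie at chr6:82774455-82774704 (minus strand) for Hk2, chr13:6648772-6649021 (minus) for Pfkp, chr19:41911621-41911870 (plus) for Pgam1, chrX:106186850-106187099 (plus) for Pgk1, chr6:124769674-124769923 (minus) for Eno2, chr3:104638414-104638663 (plus) for Slc16a1 and chr19:6384158-6384407 (plus) for Pygm.
Hk2: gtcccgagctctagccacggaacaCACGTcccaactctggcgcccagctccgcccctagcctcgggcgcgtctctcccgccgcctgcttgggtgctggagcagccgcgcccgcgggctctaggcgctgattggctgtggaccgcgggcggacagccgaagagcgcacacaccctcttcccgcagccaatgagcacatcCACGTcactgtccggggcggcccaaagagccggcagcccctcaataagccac
Pfkp: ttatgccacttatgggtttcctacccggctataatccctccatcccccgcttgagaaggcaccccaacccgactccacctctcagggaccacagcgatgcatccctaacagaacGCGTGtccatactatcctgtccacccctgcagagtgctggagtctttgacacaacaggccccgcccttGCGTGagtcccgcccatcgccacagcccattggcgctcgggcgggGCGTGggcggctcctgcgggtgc
Pgk1: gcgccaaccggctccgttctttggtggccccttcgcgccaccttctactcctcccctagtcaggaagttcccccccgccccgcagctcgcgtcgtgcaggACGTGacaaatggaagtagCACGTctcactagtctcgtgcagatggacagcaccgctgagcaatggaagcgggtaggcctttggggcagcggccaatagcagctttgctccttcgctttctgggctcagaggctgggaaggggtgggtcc
Pgam1: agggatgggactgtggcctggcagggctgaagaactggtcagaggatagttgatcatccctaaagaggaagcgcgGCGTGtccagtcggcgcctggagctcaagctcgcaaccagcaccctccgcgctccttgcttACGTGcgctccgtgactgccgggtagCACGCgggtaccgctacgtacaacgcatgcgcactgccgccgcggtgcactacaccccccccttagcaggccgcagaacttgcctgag
Eno2: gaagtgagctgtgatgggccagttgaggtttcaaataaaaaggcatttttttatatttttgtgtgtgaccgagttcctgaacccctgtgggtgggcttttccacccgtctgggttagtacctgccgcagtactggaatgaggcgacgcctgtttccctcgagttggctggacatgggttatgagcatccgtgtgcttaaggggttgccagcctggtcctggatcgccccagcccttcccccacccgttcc
Slc16a1: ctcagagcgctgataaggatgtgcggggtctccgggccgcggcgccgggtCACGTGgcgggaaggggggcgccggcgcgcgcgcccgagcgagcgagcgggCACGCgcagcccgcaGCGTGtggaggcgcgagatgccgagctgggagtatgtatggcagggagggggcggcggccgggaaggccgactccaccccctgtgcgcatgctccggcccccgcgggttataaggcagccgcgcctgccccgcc
Pygm: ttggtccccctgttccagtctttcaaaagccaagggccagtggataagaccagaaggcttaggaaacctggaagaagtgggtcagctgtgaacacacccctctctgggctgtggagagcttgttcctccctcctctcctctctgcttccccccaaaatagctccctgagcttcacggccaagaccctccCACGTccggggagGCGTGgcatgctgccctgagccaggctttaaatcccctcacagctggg

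Hk2 had 2 matches, Pfkp 3, Pgk1 2, Pgam1 3, Eno2 0, Slc16a1 4 and Pygm 2, so that the promoter of the gene that fell held the letters and that of a gene that rose did not. In Slc16a1 the E-box CACGTG counts as 2 of the 4, 1 on each strand. Of the 49 windows found for 31 of the 33 genes, 36 (73.5%) held at least 1 match, against 12679 of all 32851 windows (38.6%). Windows of 1 gene can overlap and hold the same match, as in Aldoa and Eno1, so they are not all separate promoters. The windows of the set were also richer in G and C, at 58.8% of bases against 53.2% in all windows. The matches are letters in a window and not binding sites.

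The targeted gene was examined first. Tmem259 measured 20.1, 18.5, 34.4, 16.9 and 26.2 FPKM (fragments per kilobase of gene, scaled to library depth) in KO1 to KO5, against 25.5, 23.8, 25.01, 32.4 and 30.4 FPKM in WT1 to WT5. The library labelled KO3 was the highest of the 10, and KO and WT overlapped. The log2 fold change was -0.27 (limma SE 0.16, adjusted p = 0.275), and -0.42 with an adjusted p of 0.0279 once that library was left out. Libraries held between 22968013 and 27567361 fragments in KO and between 22793058 and 28827871 in WT. Reactive glial genes differed between the groups: 7 of 8 rose, with a summed level of 134 FPKM in the library labelled KO3, 841 FPKM in the highest KO library and 101 to 141 FPKM in WT. Markers of neighbouring tissue rose too: 2 of 7 of the olfactory bulb (summed level 26.6 to 97.7 FPKM in KO, 9.54 to 51.8 FPKM in WT), 4 of 6 of the striatum and 5 of 7 of the meninges. Of 6 interneuron markers 4 rose and 1 fell, with sums of 359 to 529 FPKM in KO and 250.4 to 332 FPKM in WT. The part of these tissues in the results was not tested, apart from a covariate for the olfactory bulb.

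Several transcripts of glycolysis were higher in KO cortex, by 1.15-fold to 1.52-fold in mean FPKM. Of the 32 genes that passed the filter of a mean of at least 0.5 FPKM, 8 rose, namely Hk2, Pfkp, Aldoa, Pgk1, Pgam1, Eno2, Pkm and Slc16a1, and 1 fell, Pygm. That is 25% of the set higher, against a background of 9.77% of the 14497 genes tested, and 3.12% lower, against 3.51%. The threshold was a Benjamini-Hochberg adjusted p of 0.05 over all tested genes in limma, on log2(FPKM + 1). The median log2 fold change of the set was 0.16, and that of all tested genes 0.08. In 28 of 32 genes (87.5%) the fold change was above 0, against 69.5% of all tested genes. With median-of-ratios scaling, which takes out most of the shift of all genes (their median became 0.00325), the median of the set was 0.07, and 24 of 32 genes (75%) were above 0, against 50.9% of all. Hk2, Pfkp and Pgam1 then rose and Slc16a7 and Pygm fell, which is 9.38% higher, against 4.31% of all genes, and 6.25% lower, against 6.22%. In 7 genes, Hk2, Aldoa, Tpi1, Pgam1, Eno2, Pkm and Slc16a3, all KO libraries lay above all WT libraries (21.9% of the set, against 5.7% of all genes), and in none were they all below (1.85% of all genes; 7.55% in either direction). In bulk tissue, more cells of a type and more RNA per cell cannot be told apart.

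**Figure D1:**
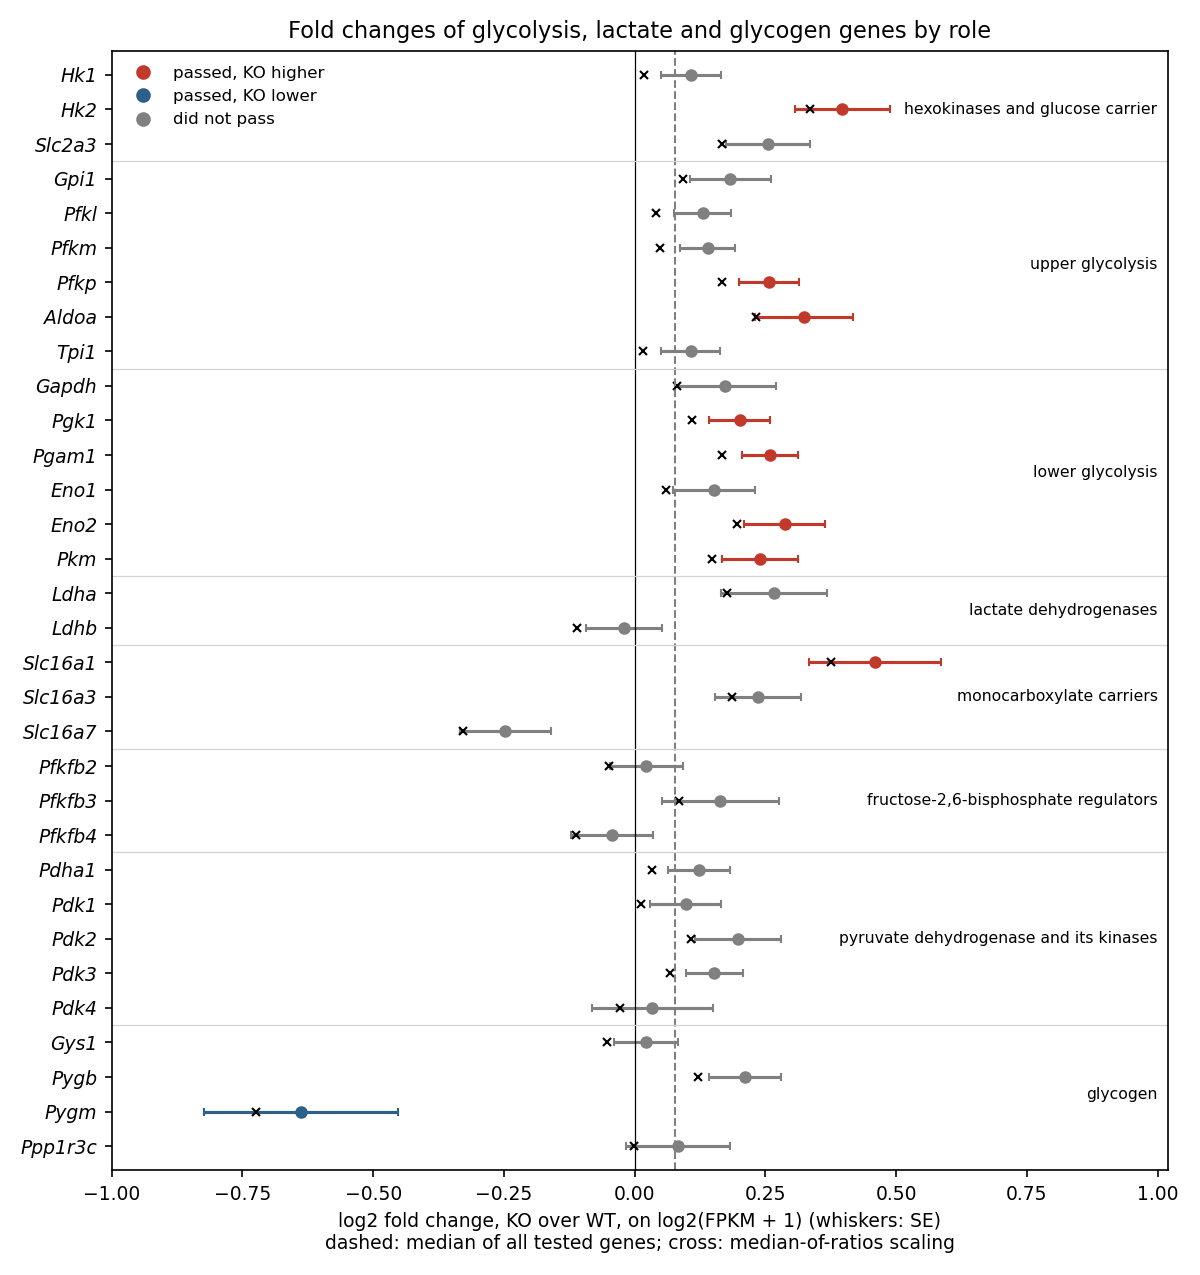
Log2 fold change of each of the 32 tested genes, KO over WT, on the log2(FPKM + 1) scale, with its SE as whiskers and the genes grouped by role. The 8 genes that rose lie between 0.20 and 0.46, Pygm lies at -0.64, and crosses give the same values after median-of-ratios scaling.

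Single libraries decided how many of the 32 genes passed. Against 9 with all libraries, the number was 2 without KO1, 0 without KO2, 16 without the library labelled KO3, 0 without KO4, 3 without KO5, 0 without WT1, 5 without WT2, 4 without WT3, 5 without WT4 and 4 without WT5. The count over all tested genes moved as well. It was 1926 with all libraries, 575 without KO1, 3769 without the library labelled KO3 and 987 without KO5. Without WT2, WT3, WT4 and WT5 it was 1181, 1230, 1262 and 847. In the 3 fits with 0, only 2 of all tested genes passed. Between 14 and 16 of the 32 genes then had an unadjusted p under 0.05, against 25.8% to 28.4% of all genes. With all libraries it was 19 of 32 (59.4%), against 32.8%. Hk2 and Pgam1 each passed in 7 of these 10 fits, Pfkp in 6, Eno2 in 4 and Slc16a1 in 3. Aldoa, Pgk1, Pkm and Pygm each passed in 1, the fit without the library labelled KO3. Each of the 9 genes kept its direction and an unadjusted p under 0.05 in all 10 fits. The 9 were picked by p in these same libraries, so this is no separate support. Slc2a3, Slc16a3, Slc16a7, Pdk3 and Pygb, which did not pass with all libraries, did the same. The library labelled KO3 was the lowest KO library for 24 of the 33 genes, and WT1 was the lowest WT library for 13. Without the library labelled KO3, 15 genes rose, 46.9% of the set against 19.6% of all genes, and Pygm alone fell, 3.12% against 6.36%. When the level of olfactory bulb markers entered as a covariate, no gene of the table passed in limma, those of the set included. The folds of the set stayed about as large, with a median log2 fold change of 0.15 and 27 of 32 above 0, and 12 of 32 (37.5%) had an unadjusted p under 0.05, against 19.9% of all genes. With that covariate and without the library labelled KO3, Hk2, Pfkp, Slc16a1, Pygb and Ppp1r3c rose and Pygm fell. Of all 14522 genes tested in that fit, 1020 rose and 509 fell.

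Entry of glucose and its first phosphorylation come first. Hk1 and Hk2 encode hexokinases, which trap glucose in the cell, and Slc2a3 encodes GLUT3, the glucose carrier of neurons. Hk2 measured 2.34, 2.65, 1.86, 3.05 and 2.84 FPKM in KO1 to KO5, against 1.69, 1.69, 1.68, 1.64 and 1.68 FPKM in WT1 to WT5. The groups did not overlap, and the library labelled KO3 came nearest to WT. The means were 2.55 ± 0.466 FPKM in KO and 1.68 ± 0.0224 FPKM in WT (SD, n = 5 each), a 1.52-fold difference (log2 fold change 0.40, SE 0.09, limma adjusted p = 0.0227). Hk1, the main hexokinase of brain, was far more abundant and did not pass, at 135 ± 9.90 FPKM in KO and 125 ± 2.89 FPKM in WT (limma adjusted p = 0.205). Slc2a3 measured 33.2, 31.4, 26.4, 32.2 and 33.6 FPKM in KO1 to KO5, against 23.6, 28.9, 27.7, 27.4 and 23.0 FPKM in WT1 to WT5. KO libraries other than the one labelled KO3 lay above all WT libraries, and the gene missed the threshold (log2 fold change 0.26, limma adjusted p = 0.0536; 0.31, adjusted p = 0.00839 without that library).

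In upper glycolysis, from glucose 6-phosphate to the triose phosphates, 2 of 6 genes rose, against 9.77% of all tested genes. With median-of-ratios scaling 1 of the 6 did, against 4.31% of all. Pfkp encodes the platelet form of phosphofructokinase, the step that commits sugar to the pathway. It measured 65.0, 66.3, 57.2, 65.7 and 65.1 FPKM in KO1 to KO5, against 49.5, 54.0, 57.6, 54.3 and 50.9 FPKM in WT1 to WT5. Its KO3 value lay within the WT range and the other KO values above it (log2 fold change 0.26, SE 0.06, limma adjusted p = 0.0224). Pfkp overlaps Pitrm1 on the other strand, and no source says that strand was kept. Pitrm1 averaged 8.73 FPKM in KO and 7.37 FPKM in WT. Gys1, Pfkfb2 and Pfkfb1 likewise overlap Ruvbl2, Yod1 and Apex2 on the other strand. Over all libraries these neighbours averaged 6.78, 4.47 and 1.09 FPKM, above the 4.83, 3.40 and 0.113 FPKM of the genes they overlap. Aldoa, which encodes aldolase A and had the highest mean level of the set, measured 837, 867, 773, 971 and 1003 FPKM in KO1 to KO5, against 614, 702, 748, 773 and 711 FPKM in WT1 to WT5. The groups did not overlap, by less than 1 FPKM between the library labelled KO3 and WT4 (log2 fold change 0.32, SE 0.09, limma adjusted p = 0.0419; 0.23, adjusted p = 0.113 with median-of-ratios scaling).

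The other phosphofructokinases, Pfkl of liver type and Pfkm of muscle type, had log2 fold changes of 0.13 and 0.14 and did not pass. Without the library labelled KO3, Pfkl rose (0.17, limma adjusted p = 0.019). Pfkm was the most abundant of the 3, at 154 ± 6.53 FPKM in KO and 139 ± 6.21 FPKM in WT (SD, n = 5 each). Gpi1, which turns glucose 6-phosphate into fructose 6-phosphate, measured 126 ± 11.03 FPKM in KO and 111 ± 9.51 FPKM in WT (limma adjusted p = 0.122). Tpi1, which interconverts the triose phosphates, measured 261 ± 6.37 FPKM in KO and 242 ± 14.5 FPKM in WT. Its groups did not overlap, as held for 5.7% of all tested genes in that direction, but it did not pass (limma adjusted p = 0.212).

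In lower glycolysis, from glyceraldehyde phosphate to pyruvate, 4 of 6 genes rose, against 9.77% of all tested genes. Only 1 of the 6 did with median-of-ratios scaling, against 4.31% of all. Pgam1, phosphoglycerate mutase, measured 108, 114, 104, 112 and 105 FPKM in KO1 to KO5, against 88.8, 85.2, 95.9, 95.6 and 87.1 FPKM in WT1 to WT5. All KO libraries lay above all WT libraries, the one labelled KO3 included (log2 fold change 0.26, SE 0.05, limma adjusted p = 0.0186). A pseudogene of it, Pgam1-ps2, was listed at 2.28 FPKM in KO and 1.98 FPKM in WT, so a small part of the reads may be exchanged between the copies. Pgk1, phosphoglycerate kinase on the X chromosome, measured 167, 160.4, 144, 171 and 164 FPKM in KO1 to KO5, against 132, 143, 139, 147 and 138 FPKM in WT1 to WT5. Only the library labelled KO3 lay inside the WT range (log2 fold change 0.20, SE 0.06, limma adjusted p = 0.042; 0.11, adjusted p = 0.17 with median-of-ratios scaling).

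Eno2 encodes the enolase of neurons. It measured 304, 327, 274, 309.8 and 288 FPKM in KO1 to KO5, against 211, 260.2, 267, 261 and 235 FPKM in WT1 to WT5 (log2 fold change 0.29, SE 0.08, limma adjusted p = 0.0352; 0.20, adjusted p = 0.0975 with median-of-ratios scaling). The groups did not overlap, and WT1 was the lowest. Of 10 neuron markers 1, Tubb3, rose, and their sum was 2688 to 2821 FPKM in KO and 2548 to 2801 FPKM in WT. Sums of the interneuron markers, of which 4 of 6 rose and 1 fell, did not overlap (359 to 529 FPKM in KO, 250.4 to 332 FPKM in WT). Striatal markers rose in 4 of 6 cases. The part of these cells in the Eno2 result was not tested. Eno1, the enolase of glia and most tissues, measured 351 ± 19.8 FPKM in KO and 317 ± 32.6 FPKM in WT and did not pass (limma adjusted p = 0.199). Pkm, pyruvate kinase, measured 488, 539, 468, 519 and 539 FPKM in KO1 to KO5, against 377, 447, 448, 451 and 438 FPKM in WT1 to WT5. WT1 was again the lowest and the groups did not overlap (log2 fold change 0.24, SE 0.07, limma adjusted p = 0.0486; 0.15, adjusted p = 0.2 with median-of-ratios scaling). Gapdh, often used as a reference transcript, averaged 819 ± 54.7 FPKM in KO and 729.6 ± 90.2 FPKM in WT (SD, n = 5 each) and did not pass (limma adjusted p = 0.232).

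Summed over the 12 genes from Gpi1 to Pkm, the level was 3669, 3821, 3514, 3962 and 4048 FPKM in KO1 to KO5, against 2820, 3320, 3394, 3520 and 3266 FPKM in WT1 to WT5. KO libraries other than the one labelled KO3 lay above every WT library, and that one lay just below WT4. The means were 3803 ± 216 FPKM in KO and 3264 ± 266 FPKM in WT (SD, n = 5 each).

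**Figure D2:**
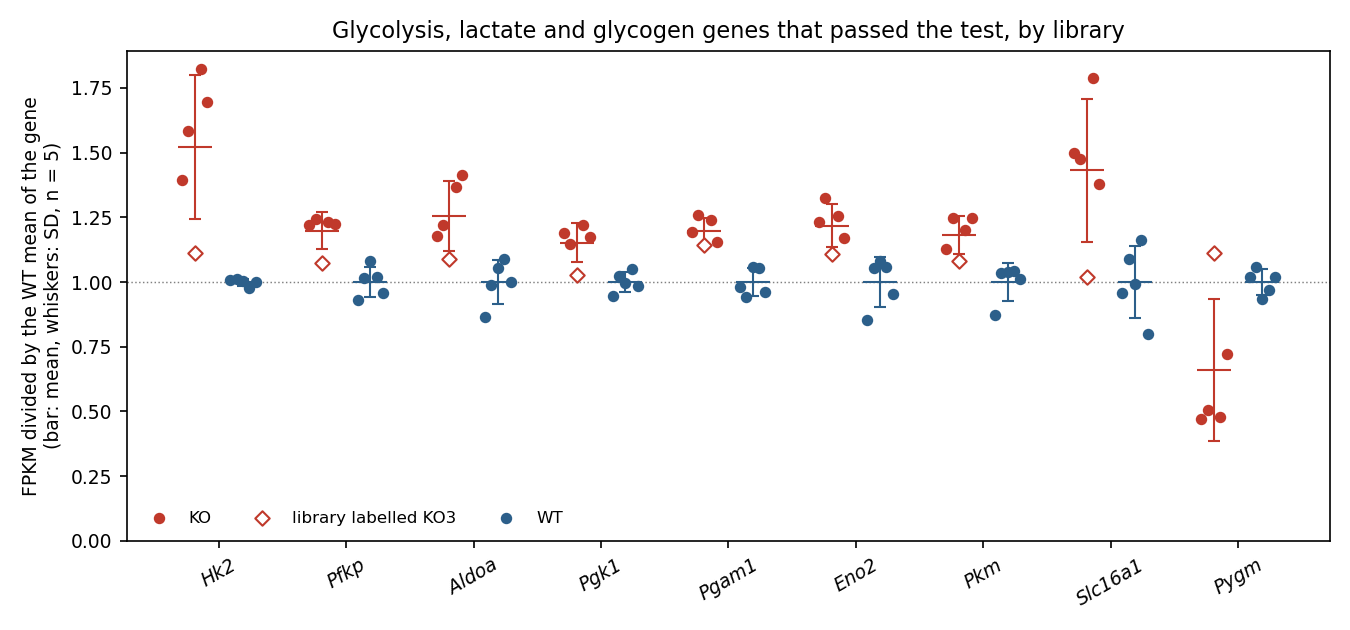
FPKM of the 9 genes that passed, divided by the WT mean of each gene, with 1 point per library, bars for group means and whiskers for SD. Hk2, Pgam1, Aldoa, Eno2 and Pkm show no overlap between KO and WT, while the library labelled KO3 (open diamonds) sits in the WT range for Pfkp, Pgk1 and Slc16a1 and above it for Pygm.

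Among the monocarboxylate carriers Slc16a1 rose. It encodes MCT1, the lactate carrier of astrocytes, oligodendrocytes and endothelium. It measured 12.6, 12.4, 8.59, 15.1 and 11.6 FPKM in KO1 to KO5, against 8.09, 9.17, 8.38, 9.80 and 6.73 FPKM in WT1 to WT5. KO libraries other than the one labelled KO3 lay above the WT range (log2 fold change 0.46, SE 0.13, limma adjusted p = 0.0359; 0.38, adjusted p = 0.0514 with median-of-ratios scaling). Of 6 endothelial markers 1 rose, and the summed levels were 83.5 to 118 FPKM in KO and 82.1 to 97.7 FPKM in WT. Of 8 oligodendrocyte markers none rose and 1, Mal, fell, and the summed levels were 1369 to 1984 FPKM in KO and 1774 to 2193 FPKM in WT.

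Slc16a3 encodes MCT4, a carrier suited to lactate export. It measured 1.52, 1.23, 1.21, 1.34 and 1.61 FPKM in KO1 to KO5, against 1.11, 1.10, 1.16, 0.951 and 0.798 FPKM in WT1 to WT5. All KO libraries lay above all WT libraries, but the gene did not pass (log2 fold change 0.24, limma adjusted p = 0.0728; 0.26, adjusted p = 0.0438 without the library labelled KO3). At this low level it rested on as few as 85 fragments in a library. Slc16a7, which encodes MCT2, the high-affinity carrier of neurons, ran the other way, between 6.65 and 7.83 FPKM in KO and between 6.87 and 9.97 FPKM in WT. It did not pass on the deposited scale (log2 fold change -0.25, SE 0.09, limma adjusted p = 0.0754), but did with median-of-ratios scaling (-0.33, adjusted p = 0.0308). It also passed on the deposited scale without WT5, its lowest WT library (-0.33, limma adjusted p = 0.0391). As a description, Slc16a1 held 57.5 ± 5.22% of the summed FPKM of the 3 carriers in KO and 45.7 ± 2.75% in WT, and Slc16a7 held 35.9 ± 4.91% in KO and 48.8 ± 2.36% in WT (SD, n = 5 each). These shares did not overlap between the groups, by a narrow margin for Slc16a1, at 49.0% in the library labelled KO3 and 48.9% in the highest WT library.

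Lactate dehydrogenase makes and uses lactate. Its A subunit, encoded by Ldha, measured 179, 148, 144, 183 and 206 FPKM in KO1 to KO5, against 130.1, 149, 146, 158 and 127 FPKM in WT1 to WT5. The values of KO2 and of the library labelled KO3 lay in the WT range, and the gene did not pass (log2 fold change 0.27, SE 0.10, limma adjusted p = 0.0912; 0.33, adjusted p = 0.0283 without the library labelled KO3). Ldhb, the B subunit, measured 193 ± 18.1 FPKM in KO and 195 ± 12.9 FPKM in WT (SD, n = 5 each; log2 fold change -0.02, SE 0.07). Ldha held 47.1 ± 5.75% of the summed FPKM of both in KO and 42.1 ± 2.53% in WT, and these shares overlapped.

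**Figure D3:**
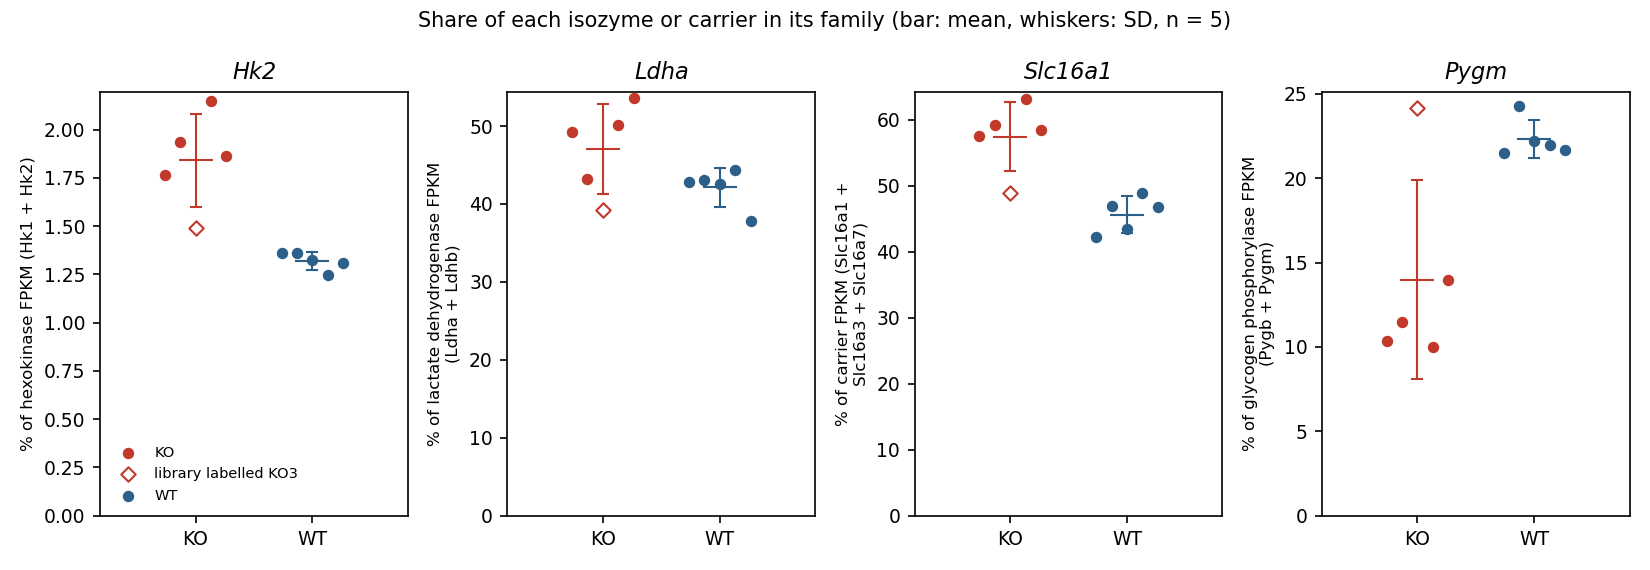
Share of Hk2, Ldha, Slc16a1 and Pygm in the summed FPKM of their families, 1 point per library, with KO left of WT, bars for means and whiskers for SD. Hk2 and Slc16a1 took a larger share in every KO library than in any WT library, and the Pygm share of the library labelled KO3 (24.2%) lies among the WT values while the other KO libraries lie between 10.02% and 13.99%.

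Glycogen is broken down by glycogen phosphorylase. Its muscle form, encoded by Pygm, is present in astrocytes, and the brain form is encoded by Pygb. Pygm measured 9.14, 9.79, 21.5, 9.29 and 13.97 FPKM in KO1 to KO5, against 19.7, 20.5, 18.1, 18.7 and 19.7 FPKM in WT1 to WT5. Of the KO libraries 4 lay below all WT libraries and the library labelled KO3 lay above them. The means were 12.7 ± 5.31 FPKM in KO and 19.3 ± 0.939 FPKM in WT (SD, n = 5 each; log2 fold change -0.64, SE 0.19, limma adjusted p = 0.0426). The other 4 KO libraries averaged 10.5 ± 2.30 FPKM, with a log2 fold change of -0.84 (limma adjusted p = 0.000348). Of 12 general astrocyte markers 3 rose (Gfap, Aqp4 and Mlc1) and none fell, and the median log2 fold change was 0.07. Without Gfap, which alone made the sum higher in KO, the other 11 summed to 855 to 1045 FPKM in KO and 885 to 1022 FPKM in WT, which overlap.

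Pygb measured 79.2, 75.7, 67.6, 83.5 and 85.9 FPKM in KO1 to KO5, against 72.2, 63.8, 63.3, 66.7 and 71.2 FPKM in WT1 to WT5. It missed the threshold (log2 fold change 0.21, SE 0.07, limma adjusted p = 0.0613), and passed without the library labelled KO3 (0.26, adjusted p = 0.00899). Of the summed FPKM of both phosphorylases Pygm held 13.99 ± 5.90% in KO and 22.3 ± 1.14% in WT (SD, n = 5 each). Gys1, the glycogen synthase outside liver, and Ppp1r3c, a subunit that directs protein phosphatase 1 to glycogen, did not pass, with log2 fold changes of 0.02 and 0.08. The values were -0.05 and -0.002 with median-of-ratios scaling. Ppp1r3c averaged 12.9 ± 1.97 FPKM in KO and 12.1 ± 1.42 FPKM in WT.

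None of the regulators of glycolysis and of pyruvate use passed in limma in the fit of all libraries. Of the 8 tested, Pdk2 and Pdk3 had an unadjusted limma p under 0.05, as did 32.8% of all tested genes. The Pfkfb genes encode the enzymes that make and break fructose 2,6-bisphosphate, the activator of phosphofructokinase. Pfkfb3, the most glycolytic form, measured 6.65 ± 1.34 FPKM in KO and 5.76 ± 0.603 FPKM in WT (SD, n = 5 each; log2 fold change 0.16, limma adjusted p = 0.328). Pfkfb2 and Pfkfb4 had log2 fold changes of 0.02 and -0.04. Pfkfb1, the liver form, was the lowest of the set and below the filter. It measured 0.122, 0.042, 0.129, 0.184 and 0.13 FPKM in KO1 to KO5, against 0.121, 0.0906, 0.0982, 0.139 and 0.0759 FPKM in WT1 to WT5, with overlap throughout.

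Pyruvate dehydrogenase kinases switch off pyruvate dehydrogenase, and with it the turning of pyruvate into acetyl-CoA in the mitochondrion. Pdk3 measured 14.5, 14.5, 13.2, 13.3 and 14.2 FPKM in KO1 to KO5, against 12.8, 13.4, 12.7, 11.4 and 11.9 FPKM in WT1 to WT5 (log2 fold change 0.15, limma adjusted p = 0.0803; 0.17, adjusted p = 0.0474 without the library labelled KO3). The groups overlapped, with the library labelled KO3 and KO4 just below WT2. Pdk2, the most abundant of the 4 kinases, measured 34.4 ± 3.77 FPKM in KO and 29.8 ± 2.71 FPKM in WT (SD, n = 5 each; limma adjusted p = 0.115; 0.0338 without that library). Pdk1 and Pdk4 had log2 fold changes of 0.10 and 0.03. Pdha1, the catalytic subunit of the dehydrogenase, had one of 0.12 (limma adjusted p = 0.172).

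**Figure D4:**
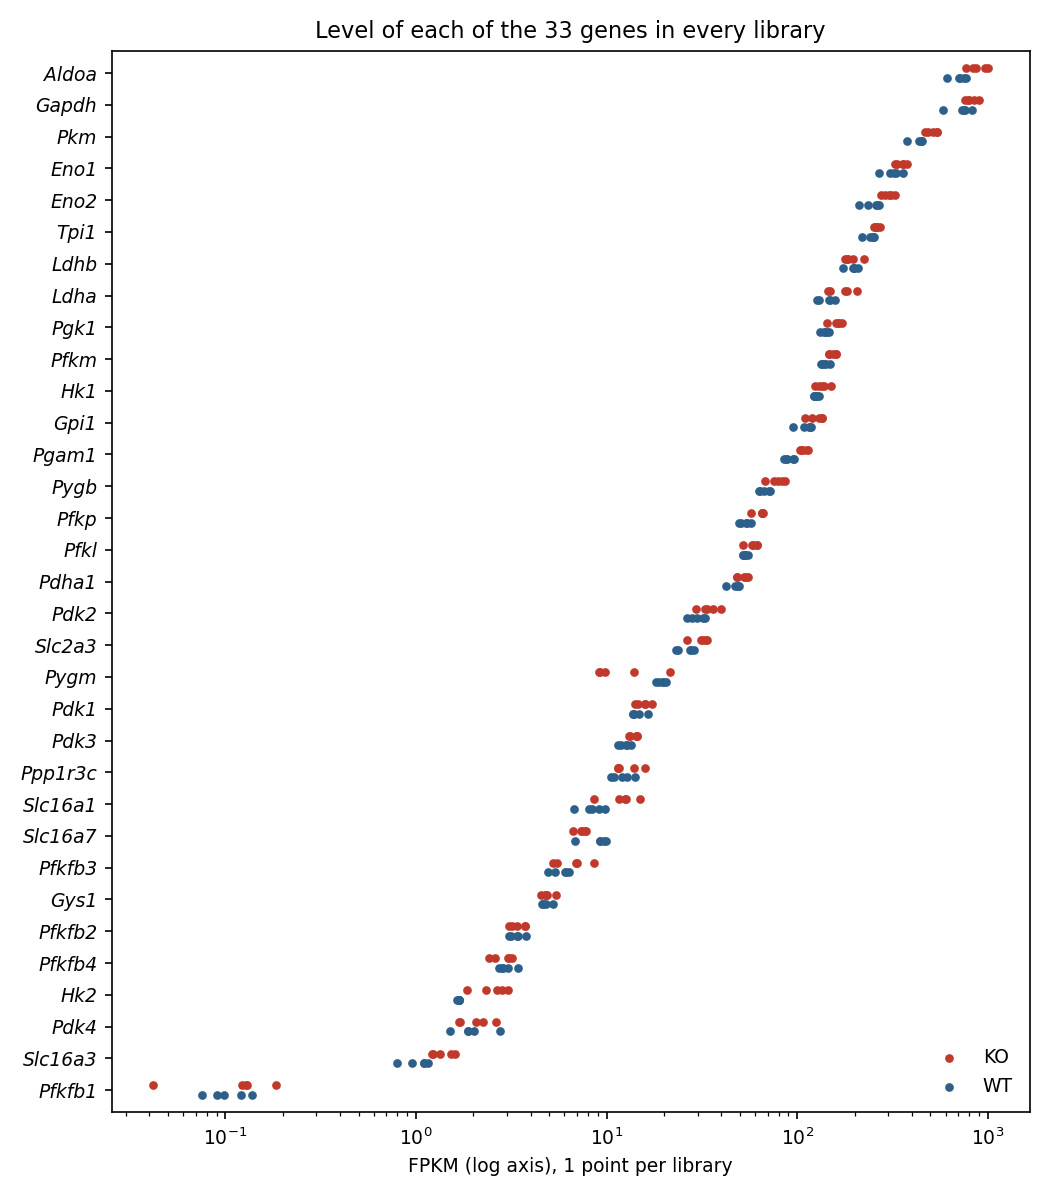
FPKM of each of the 33 genes in every library on a log axis, KO above WT in each row, ordered by mean level. Levels run from 0.113 FPKM for Pfkfb1 to 800 FPKM for Aldoa, and the shifts between KO and WT are small against the range between genes.

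Levels differed widely between steps. Between isozymes of the same step they differed widely for hexokinase and much less for enolase. Per length, Aldoa and Gapdh stood at the top in WT, at 709.7 ± 60.4 and 729.6 ± 90.2 FPKM, and did not differ beyond their spread. Pkm (432 ± 31.2 FPKM), Eno1 (317 ± 32.6 FPKM), and Eno2 and Tpi1 (247 ± 23.7 and 242 ± 14.5 FPKM) followed in WT (SD, n = 5 each). Hk2 held 1.84 ± 0.243% of the hexokinase sum in KO and 1.32 ± 0.0464% in WT. Pfkm held 55.7 ± 1.39% of the phosphofructokinase sum in KO and 56.7 ± 1.26% in WT. Eno2 held 46.1 ± 1.97% of the enolase sum in KO and 43.8 ± 1.07% in WT. The last 2 shares overlapped between the groups.

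Among other genes of these pathways 61 were found and 53 passed the filter. Of these, 4 rose (Pgam2, Pygl, Gaa and Pgd) and 2 fell (Hkdc1 and Pdp1), read against 9.77% higher and 3.51% lower among all genes. Their median log2 fold change was 0.12. The count of 6 became 4 without KO1, 0 without KO2, 17 without the library labelled KO3, 0 without KO4, 0 without WT1 and 4 without WT5. Pgam2, the muscle form of phosphoglycerate mutase, measured 11.1, 13.8, 8.42, 10.9 and 10.4 FPKM in KO1 to KO5, against 6.63, 7.56, 5.85, 6.02 and 6.74 FPKM in WT1 to WT5. The groups did not overlap (log2 fold change 0.65, SE 0.11, limma adjusted p = 0.018). Hkdc1, a gene related to the hexokinases that lies beside Hk1 on chromosome 10, measured 2.80, 1.97, 5.40, 2.64 and 1.84 FPKM in KO1 to KO5, against 5.84, 5.001, 6.20, 5.30 and 6.91 FPKM in WT1 to WT5. Values of KO libraries other than the one labelled KO3 lay below the WT range (log2 fold change -0.86, SE 0.18, limma adjusted p = 0.0198; -1.05, adjusted p = 0.000142 without that library).

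Pdp1, the phosphatase that switches pyruvate dehydrogenase on again, measured 23.6, 19.7, 31.5, 18.9 and 23.2 FPKM in KO1 to KO5, against 32.8, 37.3, 33.4, 30.5 and 36.4 FPKM in WT1 to WT5. All KO libraries but the one labelled KO3 lay below the WT range of Pdp1 (log2 fold change -0.54, SE 0.12, limma adjusted p = 0.0194; -0.65, adjusted p = 0.000345 without that library). Gaa, the lysosomal enzyme that digests glycogen, averaged 118 ± 19.2 FPKM in KO and 85.2 ± 10.02 FPKM in WT and rose (log2 fold change 0.45, limma adjusted p = 0.0258). Pygl, the liver form of glycogen phosphorylase, averaged 1.53 ± 0.335 FPKM in KO and 0.947 ± 0.112 FPKM in WT and rose (log2 fold change 0.37, limma adjusted p = 0.0306). Pgd of the pentose phosphate pathway averaged 11.02 ± 1.43 FPKM in KO and 8.25 ± 0.501 FPKM in WT and rose (log2 fold change 0.37, limma adjusted p = 0.0209; SD, n = 5 each for these 3 genes). Microglia, which carry lysosomal genes at a high level, had 3 of 8 markers higher and none lower, with summed levels of 167 to 242 FPKM in KO and 136 to 172 FPKM in WT, and the part of these cells in the result was not tested. Slc2a1, the glucose carrier of astrocytes and endothelium, and Aldoc, the aldolase of astrocytes, did not pass (log2 fold changes -0.24 and -0.04).

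Of 14 measured targets of hypoxia-inducible factors outside glycolysis, 1 rose and 1 fell, to be read against 9.77% higher and 3.51% lower among all genes, and the median log2 fold change was -0.08, against 0.08. Counts this small say nothing particular of the list. Higd1a, a mitochondrial protein induced by hypoxia, averaged 23.6 ± 1.42 FPKM in KO and 20.5 ± 0.848 FPKM in WT (log2 fold change 0.19, limma adjusted p = 0.0359; 0.11, adjusted p = 0.255 with median-of-ratios scaling). Egln1, which encodes an oxygen-sensing prolyl hydroxylase, averaged 25.1 ± 2.70 FPKM in KO and 31.9 ± 3.15 FPKM in WT (SD, n = 5 each; log2 fold change -0.33, limma adjusted p = 0.0256; -0.39, adjusted p = 0.00221 without the library labelled KO3). Egln1 passed in 4 of the 10 fits that left out 1 library and Higd1a in 1. Neither passed without KO1, KO2, KO4, KO5, WT1 or WT5. Vegfa, the vascular growth factor, and Bnip3, a mitophagy receptor, did not pass, with log2 fold changes of -0.17 and -0.15.

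**Figure D5:**
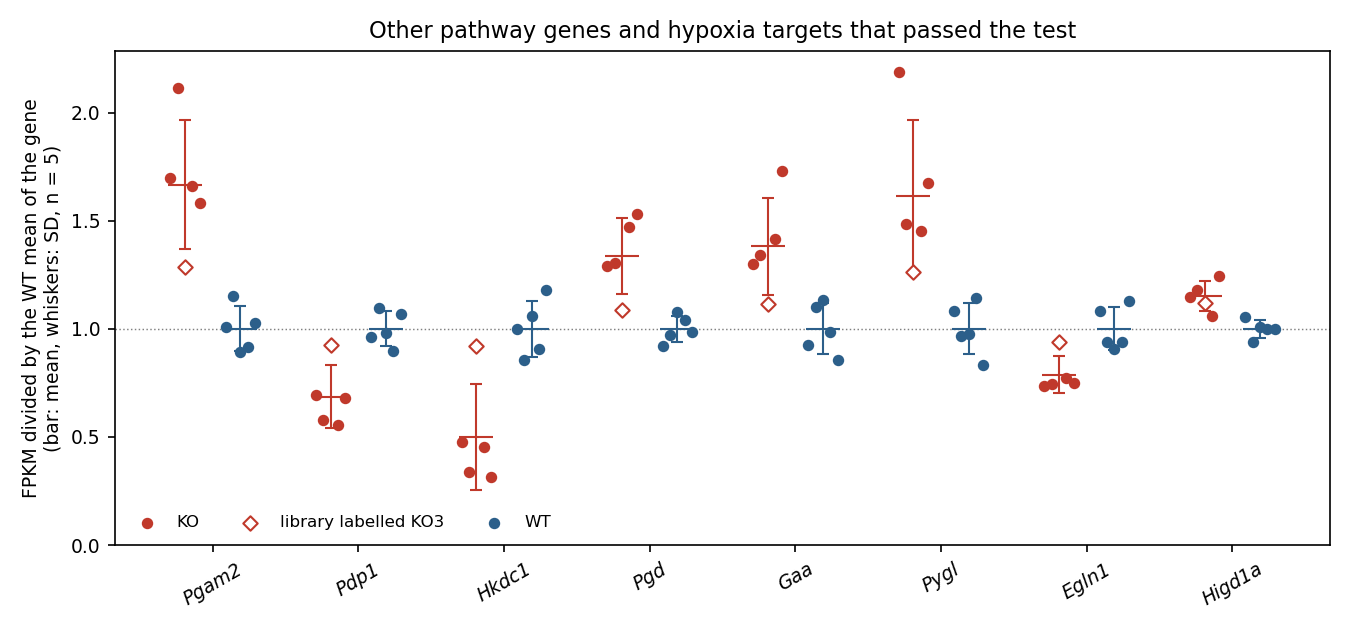
FPKM of the 6 other pathway genes and the 2 hypoxia targets that passed, divided by the WT mean of each gene, with 1 point per library, bars for means and whiskers for SD. For Hkdc1, Pdp1 and Egln1 the library labelled KO3 (open diamonds) stands apart from the other KO libraries, which lie below every WT library.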

How the data were processed

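Libraries of motor cortex RNA were prepared with NEBNext Ultra reagents, according to the labels' protocols. A role for DESeq2 and mm10, both listed in the submitters' processing notes, is not stated, and aligner, counter and annotation are likewise not stated. Values are FPKM, as the authors deposited them. FPKM times gene length fell on whole fragments for 100% of values above 0 (within 0.02). The lowest chi-square per gene among the 45 pairs of libraries was 7.16, so none was a copy. Whether the 5 mice of a group came from separate litters is not given.

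KO and WT were compared in limma 3.58.1 under R 4.3.3 (lmFit, eBayes with trend) on log2(FPKM + 1), with genotype alone, over the 14497 genes whose mean reached 0.5 FPKM. Fold changes on this scale understate those of low genes. Tests were two-sided. The step was tested on simulated counts. The genes and lists were chosen with earlier results of these data known. Per-library values are given for genes that passed with or without KO3, for at most 14 genes by lowest p, and for the genes with the highest and lowest mean. Up to 6 genes that passed are named from each other list, and further genes were named after their values were seen. Tigar and Drd1 of the lists were not matched by name. Shares within families are descriptions. Alternatives covered pseudocount, filter, scaling, variance model, weights, covariates, voom on recovered fragments and each library left out; those that combine the loss of KO3 with another choice were added after seeing the data.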

Additional observations from a re-analysis of the deposited data

Results flagged for a closer look

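Of 128 groups of 5 libraries examined, 11 held a library that stood apart from the other 4 of its group, where chance gives about 1 in 20 groups. Shares within a pair of genes mirror each other, so the 11 are 8 distinct measurements, 4 of them in the library labelled KO3 and 2 in WT5. The 128 groups hold such mirrored pairs as well, and shares are built from FPKM values that were also examined. The groups are therefore not independent, and the rate of 1 in 20 is only a rough guide. The KO3 library was far below the other KO libraries for Pfkp, at 57.21 FPKM, and far above them for Hkdc1, at 5.398 FPKM, and Egln1, at 29.87 FPKM. It also stood apart in the shares of glycogen phosphorylase, with 24.17% for Pygm and 75.83% for Pygb. Among WT libraries, WT1 was low for Pkm, at 377.1 FPKM, and WT5 was low for Slc16a7, at 6.869 FPKM. WT5 held 37.77% of lactate dehydrogenase FPKM as Ldha and 62.23% as Ldhb. WT2 held 24.29% of glycogen phosphorylase FPKM as Pygm and 75.71% as Pygb. Why these libraries differ was not tested.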

How the results depend on the processing

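All 9 genes that passed kept their direction in every alternative in which they were tested, while the number that passed moved with most of them. Without a filter on low values 2 of the set passed (2 higher, 0 lower), and with median-of-ratios scaling 5 did (3 higher, 2 lower). Array weights gave 16 (14 higher, 2 lower), against 2665 higher and 892 lower of all 14497 genes. Quantile normalization gave 6 higher and 2 lower, against 617 and 790 of all genes. A fit with no trend gave 7 higher and 0 lower, against 1216 and 430. A robust trend gave 8 higher and 0 lower, against 1401 and 514. Y-linked transcripts as a covariate gave 10 higher and 2 lower, against 1493 and 567. The olfactory bulb covariate gave 0 in limma (0 higher, 0 lower), with 12 at an unadjusted p under 0.05, and called no gene of the table, while the median log2 fold change of the set was 0.15 with it and 0.16 without it. Without the library labelled KO3, median-of-ratios scaling gave 5 higher and 2 lower, against 1372 and 1564 of all 14522 genes. Without that library the olfactory bulb covariate gave 5 higher and 1 lower, against 1020 and 509 of all genes. Leaving out each library gave 0 to 16 passing (0 to 15 higher, 0 to 1 lower). Over all genes 465 passed without a filter, 3557 with array weights, 0 with the olfactory bulb covariate (2888 at an unadjusted p under 0.05) and 2936 without the library labelled KO3 under median-of-ratios scaling, and 2 to 3769 with each library left out, against 1926. Of the other pathway genes 2, 14, 0 and 11 passed under the same 4 alternatives, and 0 to 17 with each library left out. Of the hypoxia targets 0 passed without a filter, 1 with quantile normalization, 1 with no trend and 0 with the olfactory bulb covariate, and 0 to 2 with each library left out. The cause was not tested.

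Replicate numbers were tried as a block. Same-numbered libraries deviated together with correlations between -0.06 and 0.14, and 2 of 5 matched their own number best. Y-linked transcripts marked KO4, KO5, WT4 and WT5 and no other library, so same-numbered libraries were alike in this trait. Whether they share a litter or a batch is not given, and these correlations cannot tell. With the replicate block 5 genes of the set were higher and 1 lower, against 884 higher and 387 lower of all 14497 genes. Hk2, Pfkp, Pgam1, Slc16a1 and Pygb were higher and Slc16a7 was lower. Of all genes 1271 passed in that fit, and 0 hypoxia targets did.

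Genes with fold changes near 0 turned sign. The Pfkfb2 log2 fold change was -0.048 with median-of-ratios scaling, -0.087 with quantile normalization, -0.071 with the olfactory bulb covariate, and -0.033 and -0.048 without the library labelled KO3 under that scaling and that covariate. Pdk4 was at -0.028 and -0.084 with median-of-ratios scaling and quantile normalization. Gys1 was at -0.054 and -0.078 with these, and at -0.044 without the library labelled KO3 under median-of-ratios scaling. Ppp1r3c was at -0.0020 with median-of-ratios scaling. With each library left out, and each again without the library labelled KO3, the log2 fold change ran between -0.010 and 0.075 for Gys1, -0.11 and 0.0068 for Ldhb, -0.030 and 0.159 for Pdk4, -0.0028 and 0.085 for Pfkfb2, and -0.074 and 0.048 for Pfkfb4. For Tmem259 these fits gave -0.54 to -0.17, and it was at -0.52 without the library labelled KO3 under median-of-ratios scaling. Genes of low level, such as Pfkfb1 with as few as 3 fragments in a library, are limited by depth.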
